A study of Mus musculus with 4 samples.

Results

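The 10 genes described here encode precursors of neuropeptides made by neurons of the mouse forebrain: Sst, Npy, Vip, Cck, Tac1, Penk, Pdyn, Crh, Adcyap1 and Cort. They were taken by name from the 54532 genes listed, with Ensembl identifiers matched to symbols in GENCODE M21, and all 10 were found. The brains were of C57BL/6 mice, and poly-A RNA was sequenced in 4 libraries: old tumor-bearing, old naive, young tumor-bearing and young naive. Tumor-bearing mice had received 50000 GL261 cells in the brain, a mouse glioma line that grows in this strain, and their tissue outside the tumor was taken on day 21. The naive mice were not engrafted, although their labels carry the GL261 tag too. Young mice were 8 to 12 weeks old. The stated range for old mice is 8 to 90 weeks, so its lower end is that of the young mice. Whether that end is a slip in the labels is not known, and old is used below only as labelled. There is 1 library in each group, the sources used here do not say how many mice it came from, and differences are therefore given without a replicate check or a test. A range in parentheses beside a fold is its exact 95% interval, computed from recovered reads, and covers counting error only.

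Neuropeptides are cut from larger precursors inside dense core vesicles and act on G protein-coupled receptors, mostly over longer distances and times than fast transmitters. In the cortex and hippocampus, somatostatin, cortistatin, neuropeptide Y and vasoactive intestinal peptide mark classes of GABA interneurons. In the striatum, enkephalin marks the projection neurons of the indirect pathway, whereas substance P and dynorphin mark those of the direct pathway. Neuropeptide transcripts are commonly used as markers of these cells.

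All levels are FPKM, which divides fragments by gene length and by depth, so levels of different genes can be set side by side per length. Sst, the somatostatin precursor of dendrite-targeting interneurons (ENSMUSG00000004366, mm10 chromosome 16, 23889573 to 23890958), had 40.4 FPKM in the old tumor-bearing library, 298 in old naive, 194 in young tumor-bearing and 227 in young naive. It was the highest of the 10 genes in every library and lowest in old tumor-bearing tissue. Cort, the precursor of cortistatin, a related peptide that also binds somatostatin receptors (ENSMUSG00000028971, chromosome 4, 149125034 to 149126763), had 0.445 FPKM in old tumor-bearing, 8.12 in old naive, 5.17 in young tumor-bearing and 8.89 in young naive tissue. These values stand for 7, 86, 70 and 123 reads in that order of libraries, so the lowest one carries a wide counting error.

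Npy, which encodes neuropeptide Y (ENSMUSG00000029819, chromosome 6, 49822710 to 49829507), was listed at 9.95 FPKM in old tumor-bearing, 93.05 in old naive, 48.6 in young tumor-bearing and 54.0 in young naive tissue. The same order, from old tumor-bearing through both young libraries up to old naive, held for Vip, the peptide of interneurons that inhibit other interneurons (ENSMUSG00000019772, chromosome 10, 5639218 to 5647617). Vip had 0.910 FPKM in old tumor-bearing, 8.94 in old naive, 4.78 in young tumor-bearing and 7.39 in young naive tissue. Crh, which encodes corticotropin-releasing hormone and is made in the cortex by a subset of interneurons (ENSMUSG00000049796, chromosome 3, 19693401 to 19695396), had 0.521 FPKM in old tumor-bearing, 4.55 in old naive, 2.80 in young tumor-bearing and 3.965 in young naive tissue. With 16, 94, 74 and 107 reads in those libraries, Crh had more reads than Cort in 3 of them and fewer in young naive tissue, and these were the lowest read numbers of the 10 genes.

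Cck, the cholecystokinin precursor of basket interneurons and many cortical pyramidal cells (ENSMUSG00000032532, chromosome 9, 121489824 to 121495694), had 38.2 FPKM in old tumor-bearing, 281 in old naive, 160.4 in young tumor-bearing and 181 in young naive tissue. Adcyap1, which encodes PACAP, a peptide found largely in excitatory neurons (ENSMUSG00000024256, chromosome 17, 93199017 to 93206537), had 1.28 FPKM in old tumor-bearing, 6.67 in old naive, 5.32 in young tumor-bearing and 10.1 in young naive tissue. Adcyap1 and Cort were the 2 genes whose highest level lay in the young naive and not in the old naive library.

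Among the striatal peptides, Penk, the proenkephalin gene (ENSMUSG00000045573, chromosome 4, 4133531 to 4138819), had 17.9 FPKM in old tumor-bearing, 189 in old naive, 88.0 in young tumor-bearing and 124 in young naive tissue. Tac1, the precursor of substance P (ENSMUSG00000061762, chromosome 6, 7554879 to 7565834), had 1.81 FPKM in old tumor-bearing, 20.5 in old naive, 6.24 in young tumor-bearing and 10.4 in young naive tissue. Pdyn, the prodynorphin gene (ENSMUSG00000027400, chromosome 2, 129686565 to 129699844), lay close to Tac1 at 2.40 FPKM in old tumor-bearing, 20.3 in old naive, 6.93 in young tumor-bearing and 10.47 in young naive tissue. The 5′ most 499 bases of the Penk locus overlap a gene on the opposite strand, A830012C17Rik, which was listed at 0 FPKM in old tumor-bearing tissue, 0.192 in old naive, 0.150 in young tumor-bearing and 0.0588 in young naive tissue. The labels describe both a strand-specific and an unstranded preparation, so reads of this pair cannot be told apart.

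**Figure D1:**
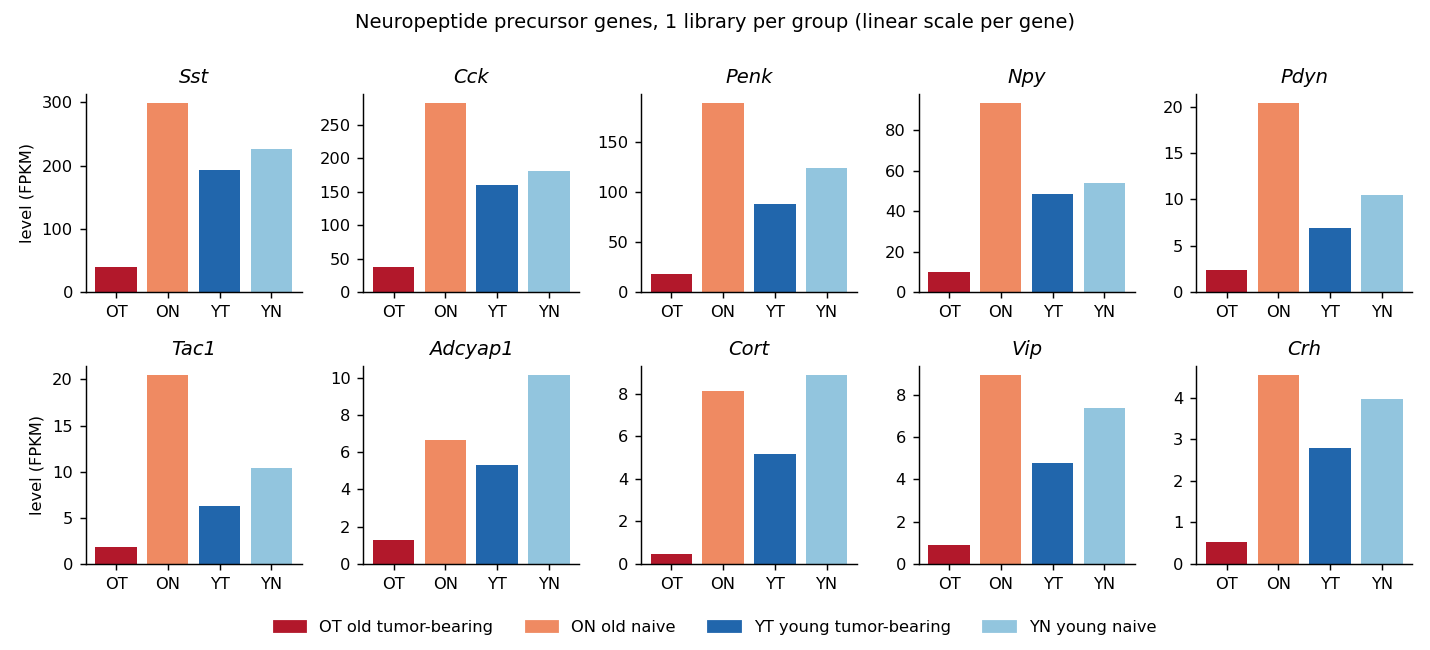
Level of each of the 10 genes in FPKM (vertical axis, linear and starting at 0, scaled per gene) in the old tumor-bearing (OT), old naive (ON), young tumor-bearing (YT) and young naive (YN) library, 1 bar per library. The old tumor-bearing bar is the lowest for all 10 genes, and the old naive bar is the highest for 8 of them.

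The 10 genes shared most of their order across libraries. All 10 were lowest in old tumor-bearing tissue, as were 50.4% of the 17441 genes that reached 1 FPKM in any library. For 8 of the 10, levels ordered from low to high as old tumor-bearing, young tumor-bearing, young naive and old naive, an order held by 13.0% of all those genes. Within each library Sst, Cck, Penk and Npy held ranks 1 to 4 in that order. Between Sst and Cck the 95% counting intervals of the levels overlapped in both old libraries (37.5 to 43.6 and 36.1 to 40.5 FPKM in old tumor-bearing tissue) and were apart in both young ones. The other 6 genes lay below Npy in every library, with intervals apart from its own, and were spread between 2.40 and 0.445 FPKM in old tumor-bearing tissue and between 20.5 and 4.55 FPKM in old naive tissue. In old tumor-bearing tissue each of Tac1, Adcyap1, Vip, Crh and Cort overlapped the next higher gene. In old naive tissue Pdyn overlapped Tac1, while Vip and Crh stood apart from the next higher gene, and in young naive tissue Pdyn, Tac1 and Adcyap1 lay at 10.14 to 10.47 FPKM with overlapping intervals.

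The 250 bases before the RefSeq transcription starts of these genes (GRCm38.p6, the assembly of mm10) were searched for the cyclic AMP response element (CRE). This site is bound by CREB-family factors, and Sst is classically regulated through it, so a match at Sst was known beforehand. A link between such sites and the shared order of levels was not tested. The motifs were the full palindrome TGACGTCA, the shorter CRE-type site TGACG or its other-strand form CGTCA, and the E-box CACGTG. A full site contains both forms of the shorter site, overlapping each other. Windows were available for 8 of the genes, 10 windows in all. Penk and Crh had no window and were not searched. The full element was in 1 of the 10 windows and in 1.55% of 32851 windows of all genes. A shorter site was in 7 of the 10 windows, of 6 genes, and in 17.8% of all windows, and the E-box in 2 of the 10 and 6.02% of all. The lines show 30 bases around the CRE-type site closest to the start, 5′ to 3′ on the gene's strand, with the matched letters in capitals, so that the full site of Sst can be set against the shorter sites of the other genes.
Sst: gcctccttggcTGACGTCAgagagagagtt
Vip: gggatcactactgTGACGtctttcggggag
Adcyap1: gggactaggatgcTGACGtcttttactgat
Cck: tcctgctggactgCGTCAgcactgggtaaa
Tac1: ggctctacaggctCGTCAcgcctgagataa
Cort: gctccggcttgtgCGTCAccgcgtgagtgt

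The Sst stretch is chr16:23890874-23890903 on the minus strand, with the site beginning 48 bases before the start. Those of Vip (chr10:5639126-5639155, plus strand), Adcyap1 (chr17:93198913-93198942, plus), Cck (chr9:121495725-121495754, minus), Tac1 (chr6:7555005-7555034, plus) and Cort (chr4:149126765-149126794, minus) begin 79, 91, 47, 43 and 18 bases before the start, in that order. The starts meant here are the RefSeq ones, which for Sst and Tac1 lie inside the GENCODE spans given above and not at their ends. The stretches of Sst and Tac1 lie inside those spans too. The 2 windows of Adcyap1 overlap and hold the same site. No CRE-type site was found in the windows of Npy and Pdyn. A match describes these letters only.

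Facts of the libraries bear on all comparisons. Recovered fragments in genes came to 19570175 in old tumor-bearing, 19624784 in old naive, 21887854 in young tumor-bearing and 23261853 in young naive tissue. The summed FPKM of 8 cerebellar marker genes was 8.45 in old tumor-bearing and 19.8 in old naive tissue, against 456 in young tumor-bearing and 473 in young naive tissue. Of 6 thalamic markers the sums were 40.9, 18.2, 50.9 and 49.8 in the same order of libraries, and of 7 choroid plexus markers 460.3, 7.86, 399 and 415. The libraries labelled as brain thus held unlike amounts of brain regions, and the old libraries held little cerebellar RNA. The cerebellar and thalamic lists were added after the values were seen. In bulk tissue, fewer cells of a type and less RNA per cell cannot be told apart.

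**Figure D2:**
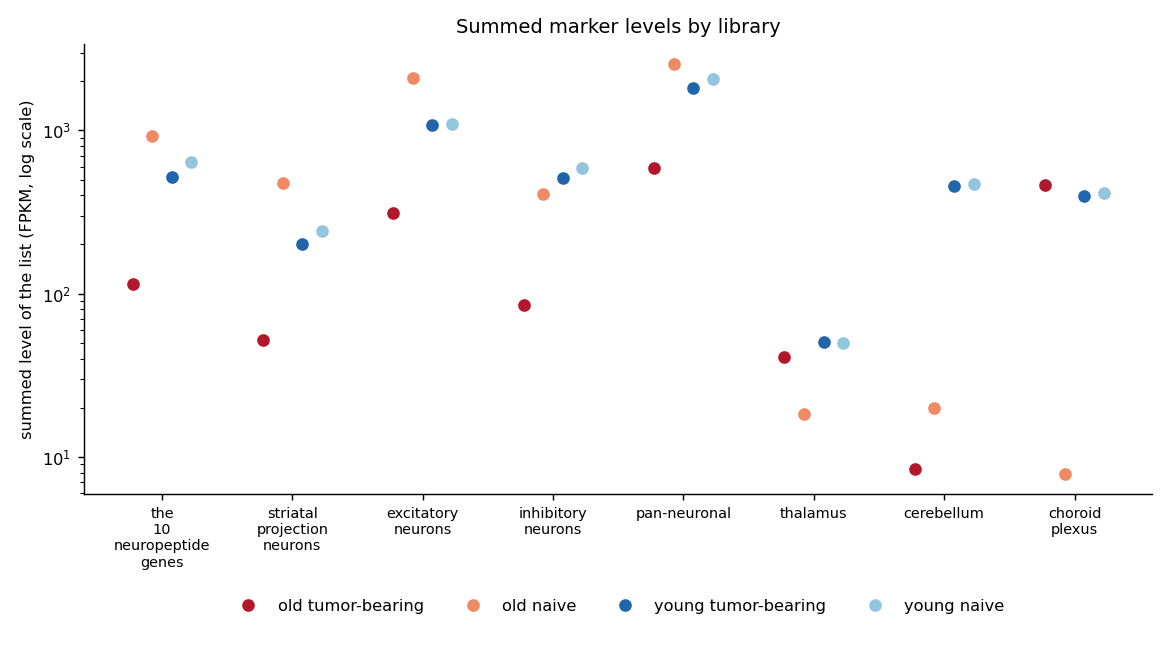
Summed level of each gene list in FPKM (vertical axis, log scale) in each of the 4 libraries (1 point per library). The neuropeptide genes sum to 114 FPKM in old tumor-bearing tissue, 931 in old naive, 522 in young tumor-bearing and 638 in young naive, while the cerebellar list is low in both old libraries.

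Setting old tumor-bearing beside old naive tissue addressed how brain outside the tumor differs from brain without one in old mice. All 10 neuropeptide genes were several-fold lower in the tumor-bearing library, and all 10 were at least 2-fold lower, where 31.4% of 16488 genes were. Their median log2 ratio of FPKM + 0.1 was -3.10, against -0.31 for all genes and -2.48 for the 16 pan-neuronal markers. Of the 10 genes, 9 lay below the pan-neuronal median, as did 6.46% of all genes, and the exception was Adcyap1.

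Cort was 18.3-fold lower (8.49 to 46.8) and Tac1 11.3-fold lower (9.49 to 13.6). Penk was 10.6-fold lower (9.75 to 11.5), Vip 9.83-fold (7.66 to 12.8), Npy 9.35-fold (7.77 to 11.3), Crh 8.73-fold (5.11 to 15.9) and Pdyn 8.48-fold (7.17 to 10.1). Sst and Cck, the most abundant pair, were 7.37-fold (6.78 to 8.02) and 7.36-fold (6.91 to 7.85) lower, and Adcyap1 was 5.23-fold lower (3.93 to 7.05). The intervals of Penk and Tac1 did not overlap those of Sst and Cck, while that of Cort, with 7 reads in the tumor-bearing library, overlapped those of Penk, Tac1, Vip, Npy, Crh and Pdyn.

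Neuronal markers were lower too. Of 10 striatal markers, 9 were at least 2-fold lower (median -3.18), with the dopamine receptor genes Drd1, of the direct pathway, and Drd2, of the indirect pathway, 15.4-fold (12.6 to 19.0) and 11.2-fold (9.34 to 13.4) lower, beside 11.3-fold for Tac1 and 10.6-fold for Penk. The excitatory list had 11 of 12 lower (median -2.56) and the inhibitory list 10 of 13 measured (median -1.93), in which Gad1, the GABA-synthesizing enzyme, was 5.38-fold lower (5.11 to 5.66). The neuropeptide median, -3.10, lay below the inhibitory and excitatory medians and just above the striatal one. T cell markers summed to 23.7 FPKM in the old tumor-bearing and 4.77 FPKM in the old naive library, with 7 of 8 at least 2-fold higher and Cd3d, a T cell receptor subunit, at 74 and 0 reads. The microglia median was 0.24, the oligodendrocyte median -0.42 and the astrocyte median -1.35. The part of these cell types, and of the unequal thalamic and choroid plexus content, in the neuropeptide values was not tested.

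Other scalings shifted all ratios of this comparison upward by 0.38 to 0.58 on the log2 scale, and the all-gene split of 20.6% higher and 31.4% lower became as much as 32.3% higher and 19.4% lower. Relative to the median of all genes the neuropeptide median was -2.79 as deposited and between -2.85 and -2.88 under the other scalings, with all 10 genes at least 2-fold lower under each.

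**Figure D3:**
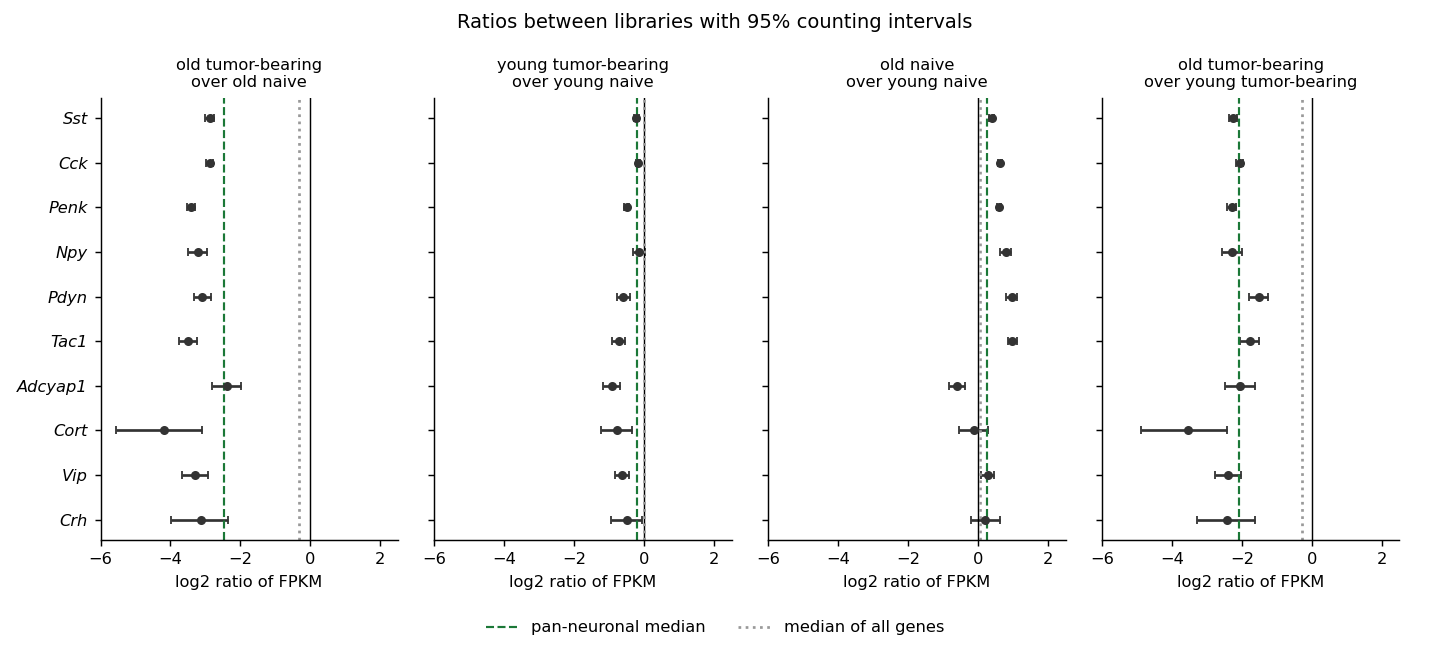
Log2 ratio of FPKM (horizontal axis, without the added 0.1 used for the medians) for each of the 10 genes in 4 comparisons, tumor-bearing over naive or old over young, with 95% counting intervals. The dashed line is the pan-neuronal median and the dotted line the median of all genes; in old tumor-bearing over old naive tissue 9 of the 10 genes lie left of the dashed line.

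In young mice the same comparison, tumor-bearing with naive, gave much smaller ratios with the same sign. All 10 genes were lower in the young tumor-bearing library, where 50.8% of 15500 genes were, and 0 of the 10 were 2-fold apart, where 1.85% of genes were at least 2-fold lower and 5.05% higher. The counting interval lay below 1 for 9 of the 10, against 27.5% of all genes, and the exception was Npy, 1.11-fold lower (0.990 to 1.25). The median log2 ratio was -0.54, with -0.01 for all genes and -0.20 for pan-neuronal markers.

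Adcyap1 was 1.91-fold lower (1.62 to 2.25), Cort 1.72-fold (1.27 to 2.34), Tac1 1.66-fold (1.47 to 1.88), Vip 1.55-fold (1.34 to 1.78), Pdyn 1.51-fold (1.33 to 1.72), Crh 1.41-fold (1.04 to 1.93) and Penk 1.41-fold (1.35 to 1.48). Sst and Cck were 1.17-fold (1.11 to 1.23) and 1.13-fold (1.08 to 1.18) lower. Thus Adcyap1 had the smallest fold of the 10 genes in the old pair and the largest in the young pair. Its interval overlapped those of Sst, Cck and Crh in the old pair. In the young pair it overlapped those of Cort, Tac1, Vip, Pdyn and Crh, so neither rank is set apart by counting error. Below the pan-neuronal median lay 8 of the 10 genes, where 24.4% of all genes did, and all but Npy and Cck were among them. Cerebellar, thalamic and choroid plexus content was closer here, with cerebellar markers at 456 FPKM in young tumor-bearing and 473 in young naive tissue, thalamic markers at 50.9 and 49.8, and choroid plexus markers at 399 and 415. Striatal markers summed to 202 FPKM in young tumor-bearing and 242 FPKM in young naive tissue (median -0.36), a gap of the same sign as that of the striatal peptides. Other neuropeptide precursors differed far more, with 8 of 15 at least 2-fold lower and sums of 34.5 FPKM in young tumor-bearing and 76.1 FPKM in young naive tissue. Hypothalamic ones led them, named here after their values were seen: Hcrt, the orexin precursor, had 2 and 124 reads in these libraries, Oxt, the oxytocin precursor, 3 and 52, and Pmch, the precursor of melanin-concentrating hormone, 10 and 69. The part of unequal hypothalamic content in the values of the 10 genes was not tested. Without replicates, differences of this size cannot be told apart from those between animals or dissections.

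**Figure D4:**
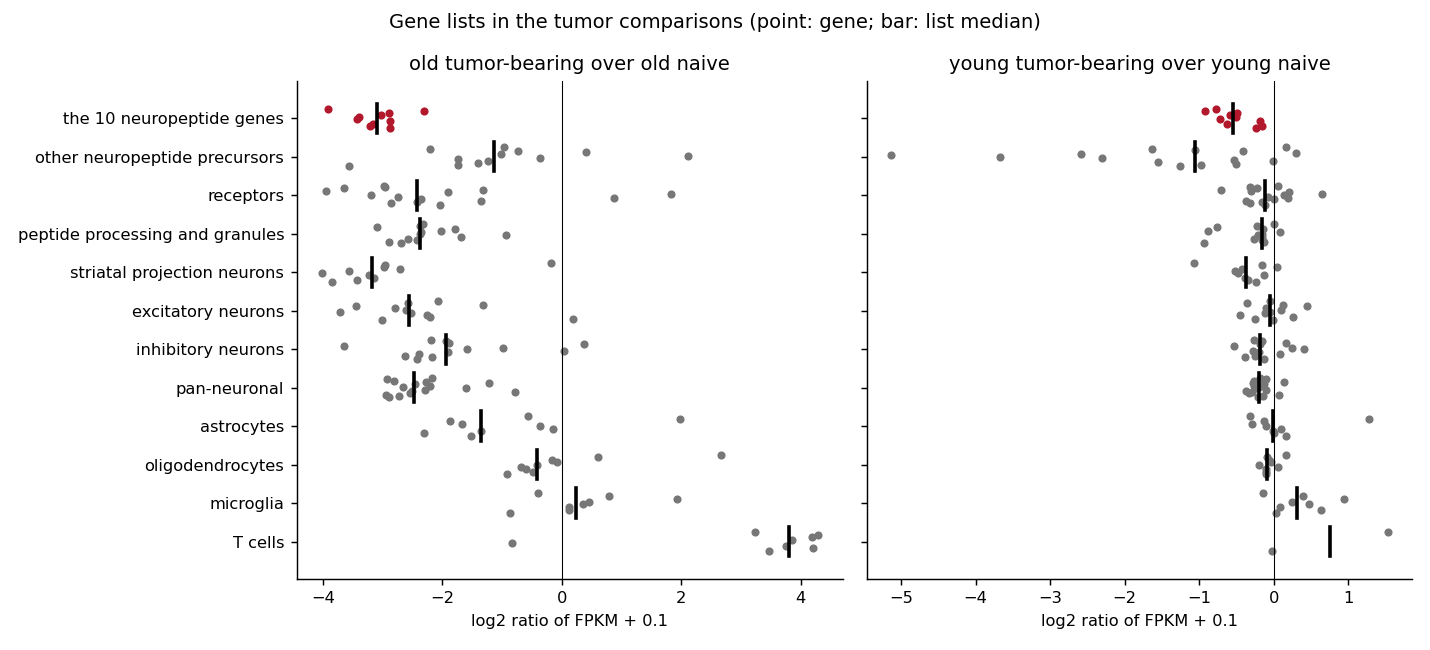
Log2 ratio of FPKM + 0.1 (horizontal axis) of every measured gene of 12 lists in the old and the young tumor comparison; each point is a gene, red for the 10 neuropeptide genes, and bars are list medians. The neuropeptide median is -3.10 in the old pair and -0.54 in the young pair, and the horizontal scales differ between panels.

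Old naive against young naive tissue showed higher levels of most of the 10 genes. The ratio was above 1 for 8 of the 10 and below 1 for 2, where it was below 1 for 45.2% of all genes. The counting interval lay above 1 for 7, where it did for 35.0% of all genes, and it lay below 1 for Adcyap1 alone (26.9% of all genes). The first count was 6, without Vip, under 3 of 4 other scalings. None of the 10 reached 2-fold in either direction, where 6.71% of 15419 genes were higher and 4.93% lower. Tac1 was 1.97-fold higher (1.79 to 2.17), Pdyn 1.94-fold (1.75 to 2.16), Npy 1.72-fold (1.55 to 1.92), Cck 1.55-fold (1.49 to 1.61), Penk 1.52-fold (1.46 to 1.59), Sst 1.31-fold (1.25 to 1.38) and Vip 1.21-fold (1.07 to 1.37). Crh at 1.15-fold higher (0.861 to 1.53) and Cort at 1.10-fold lower (0.824 to 1.46) did not differ beyond counting error, and Adcyap1 was 1.52-fold lower (1.29 to 1.80).

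By list median, markers of striatal and excitatory neurons were higher in the same library, and those of inhibitory neurons were not. Striatal markers summed to 478 FPKM in old naive and 242 FPKM in young naive tissue (median 0.96), and excitatory markers to 2087 and 1095 FPKM (median 0.87). At least 2-fold higher were 5 of 10 striatal markers, with 0 lower, and 5 of 12 excitatory ones, with 1 lower. The neuropeptide median was 0.50, and that of all genes was 0.06. Inhibitory markers, the class of cells that make Sst, Npy, Vip and Cort, summed to 407 FPKM in old naive and 589 FPKM in young naive tissue (median -0.14), with 0 of 13 at least 2-fold higher and 3 lower, Calb2, Sncg and Pvalb, named after their values were seen. The lowest log2 ratio of the 10 neuropeptide genes was -0.60, for Adcyap1. With cerebellar markers at 19.8 FPKM in old naive and 473 FPKM in young naive tissue, age and the regions in the tissue cannot be told apart here. The part of cerebellar content in the values of the inhibitory markers was not tested.

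Old tumor-bearing against young tumor-bearing tissue again had all 10 genes at least 2-fold lower, where 29.8% of 16562 genes were lower and 19.0% higher. The gap ran from 2.89-fold for Pdyn (2.40 to 3.49) and 3.45-fold for Tac1 (2.85 to 4.20) to 11.6-fold for Cort (5.36 to 29.98). Sst was 4.79-fold lower (4.401 to 5.22), Npy 4.88-fold (4.03 to 5.95), Penk 4.92-fold (4.52 to 5.35) and Cck 4.20-fold (3.93 to 4.48). The median was -2.24, beside -2.09 for pan-neuronal markers and -0.28 for all genes, and 6 of the 10 lay below the pan-neuronal median, where 7.79% of all genes did. Cerebellar markers, at 8.45 and 456 FPKM, set these libraries apart as well, and age and the regions in the tissue cannot be told apart.

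The age by tumor difference, the log2 ratio of the old pair minus that of the young pair, was negative for all 10 genes, with a median of -2.68. It ran from -3.15 for Cort, -3.06 for Npy and -2.90 for Penk to -1.38 for Adcyap1. The median was -2.27 for the pan-neuronal markers and -0.39 over 14547 genes measured in both pairs. The ratio of old over young lay above 1 in naive and below 1 in tumor-bearing tissue, both beyond counting error, for 7 of the 10 genes and for 22.8% of all genes, and for 6, without Vip, under 3 of 4 other scalings. The comparisons share libraries, so these values restate the ones above, and with 1 library per group the difference has no test.

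The make-up of the neuropeptide pool differed far less between libraries than its size. Sst held 35.5% of the summed FPKM of the 10 genes in old tumor-bearing tissue, 32.0% in old naive, 37.1% in young tumor-bearing and 35.6% in young naive tissue. The share of Cck was 33.6%, 30.2%, 30.7% and 28.4% in the same order of libraries, and that of Penk 15.7%, 20.3%, 16.9% and 19.5%. Penk thus had a smaller share in each tumor-bearing library than in its naive counterpart, and Sst and Cck each had a larger one. Together these 3 genes made up 84.8% of the pool in old tumor-bearing, 82.6% in old naive, 84.7% in young tumor-bearing and 83.5% in young naive tissue. The share of Cort was 0.391% in old tumor-bearing tissue, against 0.872% in old naive tissue, and 0.991% in young tumor-bearing against 1.39% in young naive tissue.

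**Figure D5:**
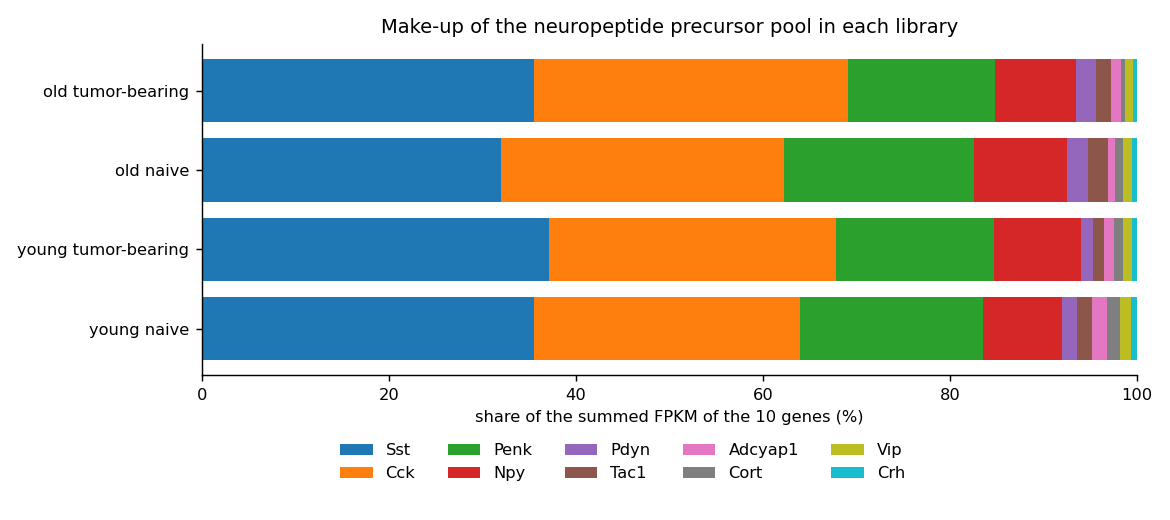
Share of each gene in the summed FPKM of the 10 neuropeptide genes (horizontal axis, %), 1 bar per library. Sst, Cck and Penk together take 82.6% to 84.8% in the 4 libraries, although the sums range from 114 to 931 FPKM.

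The receptors of these peptides were mostly lower in old tumor-bearing tissue as well. Of 21 receptor genes 15 were measured in the old pair, 13 of them at least 2-fold lower and 1 higher (median -2.43). Cckbr, the main cholecystokinin receptor of the brain, had 2.07 FPKM in old tumor-bearing, 33.6 in old naive, 11.2 in young tumor-bearing and 13.8 in young naive tissue, a 16.2-fold gap in the old pair (13.6 to 19.4). Oprd1, the delta opioid receptor that binds enkephalin, was 14.1-fold lower (10.9 to 18.4), and Oprk1, the dynorphin receptor, 14.0-fold lower (9.11 to 22.6). The somatostatin receptors Sstr1 to Sstr4 were between 2.62-fold (Sstr4, 2.03 to 3.40) and 7.66-fold (Sstr2, 6.00 to 9.89) lower, and Crhr1 8.23-fold (6.59 to 10.4). Sstr5, Cckar, Tacr2, Tacr3, Oprm1 and Crhr2 stayed under 1 FPKM in both old libraries.

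A pair of receptors went the other way in the old pair. Vipr2 had 1.07 FPKM in old tumor-bearing and 0.229 FPKM in old naive tissue, 4.67-fold higher (2.75 to 8.45), and 2.19 FPKM in young tumor-bearing and 1.36 FPKM in young naive tissue, 1.61-fold higher (1.28 to 2.03). Npy2r, largely a presynaptic neuropeptide Y receptor, had 3.25 FPKM in old tumor-bearing and 1.74 FPKM in old naive tissue, 1.87-fold higher (1.47 to 2.40), and 3.21 and 2.79 FPKM in the young tumor-bearing and young naive libraries. For both, the old naive library was the lowest of the 4, as it was for the thalamic list, whose part in these values was not tested. Vipr1, the other receptor of vasoactive intestinal peptide, was 9.99-fold lower in the old pair (8.27 to 12.2). In the young pair 0 of 15 measured receptors were 2-fold apart (median -0.12), and Adcyap1r1, the PACAP receptor, was 1.16-fold higher (1.11 to 1.21) where Adcyap1 itself was lower.

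Genes that cut precursors and build dense core vesicles followed in the old pair, with 12 of 13 at least 2-fold lower and 0 higher (median -2.37). Vgf, a granin-like precursor, had 16.2 FPKM in old tumor-bearing and 140 FPKM in old naive tissue, 8.62-fold lower (8.09 to 9.19). The convertases Pcsk2 and Pcsk1, which cleave prohormones, were 7.52-fold (7.15 to 7.91) and 6.85-fold (5.80 to 8.13) lower. In the young pair 0 of 13 were 2-fold apart (median -0.16), but Pcsk1 was 1.92-fold lower (1.76 to 2.09) and Vgf 1.69-fold lower (1.63 to 1.75), whereas Pcsk2 was 1.10-fold lower (1.06 to 1.13). Peptidases and the Crh-binding protein were less uniform, with 3 of 9 at least 2-fold lower in the old pair and a median of -0.12. Of these, Crhbp, which binds corticotropin-releasing hormone, was 6.54-fold lower (5.03 to 8.60), beside 8.73-fold for Crh, and Prep, prolyl endopeptidase, was 1.94-fold higher (1.76 to 2.14).

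Other neuropeptide precursors were less uniform than the 10 genes. Of 25 such genes, 12 were measured in the old pair, 7 at least 2-fold lower and 1 higher (median -1.13), and 15 in the young pair, 8 lower and 0 higher (median -1.05). Cartpt, the CART precursor, was 13.5-fold lower in the old pair (8.36 to 22.9) and 2.41-fold lower in the young pair (1.92 to 3.04). Pnoc, the nociceptin precursor of interneurons, was 3.69-fold (2.44 to 5.71) and 2.002-fold (1.58 to 2.54) lower. Avp, the vasopressin precursor of the hypothalamus, was 4.82-fold higher in the old pair (2.04 to 13.9, 43 and 6 reads) and 5.27-fold lower in the young pair (2.89 to 10.4, 13 and 70 reads).

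Among 8441 other protein-coding genes of at least 5 FPKM on average, the 5 whose profile over the 4 libraries came closest to the median profile of the 10 were Cx3cl1, Gfra2, Fam81a, Sv2b and Ldb2. Cx3cl1, which encodes the neuronal chemokine fractalkine, differed from it by a root mean square of 0.0193 on the log2 scale, with 30.2 FPKM in old tumor-bearing, 241 in old naive, 134 in young tumor-bearing and 180.3 in young naive tissue. The nearest gene to Pdyn was Adora2a, the adenosine receptor of striatal neurons (0.0871), to Adcyap1 the granin gene Scg2 (0.118), and to Vip the transcription factor gene Egr3 (0.0415). Cort and Adcyap1 lay farthest from the median profile, at 0.547 and 0.386, and Sst closest, at 0.0905. Such likeness rests on 4 libraries that differ in many genes at once.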

How the data were processed

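The authors deposited 1 FPKM value per Ensembl gene and library, per the file headers. The submitters' processing notes name HISAT2 and mm10. How fragments were counted, with which annotation and strand setting, and whether mice were pooled is not given in the sources used here. Groups came from the sample titles.

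GENCODE M21 named 54495 of the 54532 genes. FPKM times summed exon length came in whole steps, from which a depth divisor followed for each library (23253749 in old tumor-bearing, 15646445 in old naive, 19999587 in young tumor-bearing, 20445810 in young naive tissue), as did recovered reads. Whole values in all 4 libraries were found for 31928 (97.2%) of 32846 genes above 0, within 0.03 reads or 2e-05 of the value, among them 9 of the 10 described genes. For Adcyap1 the smallest whole numbers in the ratio of its values (62, 218, 222 and 433) were used, which gives the widest intervals. The divisor, whose meaning is not stated, was 1.19, 0.797, 0.914 and 0.879 times the recovered fragments.

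A gene counted as measured in a comparison if either library had 1 FPKM or more. Log2 ratios used FPKM + 0.1, which understates differences of low genes, and counts of 2-fold genes used these ratios. Folds are ratios of FPKM with exact conditional binomial 95% intervals (Python 3.11.15, SciPy 1.17.1). Intervals of levels are exact Poisson ones. Without molecular identifiers, reads are not independent molecules, so intervals cover counting error only. With 1 library per group no test was made. The scripts were tested on simulated data.

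The 10 genes and the lists were chosen with earlier results of these data known. Named from each list were up to 4 genes with the largest absolute log2 ratio in the old tumor comparison, and the receptors of each peptide. Cerebellar and thalamic lists were added after the values were seen. Profile neighbours were ranked by the root mean square difference of centred log2(FPKM + 0.1). Pseudocount, filter and scaling were varied. Promoter windows came from RefSeq (GRCm38.p6).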

Additional observations from a re-analysis of the deposited data

Results flagged for a closer look

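For 7 of the 10 genes the old libraries lay above the young ones in naive tissue and below them in tumor-bearing tissue, each beyond counting error. Under 3 of 4 other scalings the naive ratio of Vip was within counting error, which left 6. As deposited, this also held for 22.8% of 14531 genes. Each tissue is 1 old and 1 young library, so the difference was not tested. The log2 ratio of old over young in tumor-bearing tissue minus that in naive tissue was -3.06 for Npy, -2.90 for Penk, -2.70 for Cck and for Tac1, -2.65 for Sst, -2.54 for Vip and -2.44 for Pdyn. Arithmetically this is the age by tumor difference given above. Crh, Cort and Adcyap1 were not among them: the naive ratio of Crh and Cort was within counting error, and that of Adcyap1 was below 1 as in tumor-bearing tissue. Cerebellar markers were low in both old libraries, and the part of that in these values was not tested.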

How the results depend on the processing

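The counts of the 10 genes at least 2-fold apart were the same under the alternatives run, except at a floor of 5 FPKM, where fewer of them were measured and 9 were lower in the old tumor comparison and 8 in the age comparison of tumor-bearing tissue. The median log2 ratio of the old tumor comparison, -3.10 as reported, was -2.75 with 1 FPKM added, -2.74 under median-of-ratios scaling, -2.55 when scaled by fragments in genes, -2.68 with equal FPKM totals and -2.63 when scaled by fragments without mitochondrial genes and the 50 highest. For the age by tumor difference, -2.68 as reported, these 5 settings gave -2.20, -2.25, -2.16, -2.30 and -2.22 in the same order. For old against young tumor-bearing tissue, -2.24 as reported, they gave -1.82, -1.87, -1.89 and -1.95, leaving out equal totals, which moved it less. The median in old against young naive tissue, 0.50 as reported, was 0.27 with equal FPKM totals. The scalings multiply whole libraries, so all genes shift alike. Counts by counting interval were recomputed under the 4 other scalings, a choice made after seeing the data: 9 of the 10 genes below 1 in the young tumor comparison became 10, with Npy, under median-of-ratios scaling, and 7 above 1 in old against young naive tissue became 6, without Vip, under the other 3. Of 355 values of single genes under the alternatives, 74 moved beyond their counting interval and 1 changed sign, Crh in old against young naive tissue, to -0.03 with equal FPKM totals. No paired analysis was possible because each group is 1 library, and no library could be left out. Depth limits Cort and Crh, with 7 and 16 reads in the old tumor-bearing library.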

Other observations

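Genes of the cyclic AMP pathway and of neuronal activity, and transcription factors of interneurons, gave further values in the tumor comparisons. Of 16 cyclic AMP and activity genes, 10 were at least 2-fold lower and 2 higher in the old tumor-bearing library than in the old naive one (median -1.58), and 0 were 2-fold apart in the young pair (median -0.06). Npas4, an activity-induced transcription factor gene, had 0.906 FPKM in old tumor-bearing, 11.6 in old naive, 8.67 in young tumor-bearing and 5.49 in young naive tissue. It was 12.8-fold lower in the old pair (9.99 to 16.7) and 1.58-fold higher in the young pair (1.38 to 1.80), where all 10 neuropeptide genes were lower. Egr1, another activity-induced gene, was 9.70-fold lower in the old pair (9.15 to 10.3) and 1.05-fold higher in the young pair (1.01 to 1.09).

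Of 15 measured genes of interneuron development, 10 were at least 2-fold lower and 1 higher in the old pair (median -1.58), and 0 were 2-fold apart in the young pair (median 0.08). Lhx6, a transcription factor gene of the interneurons that make somatostatin, had 1.13 FPKM in old tumor-bearing, 6.36 in old naive, 2.71 in young tumor-bearing and 2.87 in young naive tissue. It was 5.64-fold lower in the old pair (4.62 to 6.92), beside 7.37-fold for Sst, and 1.06-fold lower in the young pair (0.893 to 1.26), beside 1.17-fold for Sst.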
